A study of Aegilops tauschii x Triticum turgidum and Aegilops tauschii and Triticum turgidum subsp. durum with 18 samples.

Results

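Among the probe sets expressed in every parent of the synthetic hexaploid wheats, 30 stood clearly above all of those parents in all of the synthetic groups. A probe set is a group of short array probes that reports 1 transcript, or several that share sequence. Its level is given on the log2 scale. The 30 were chosen by their measured levels. Each had a mean of at least 5 in the 3 parental groups, and in each of the 3 synthetic groups a mean at least 1 above the highest parental mean, which is a 2-fold excess. A mean of 5 or more in every parent was met by 9121 of the 61179 probe sets that are not AFFX controls, so the 30 were 0.329% of these. The same 18 arrays also held samples that this choice did not use, the natural hexaploid wheat and mixes of parental RNA, and the 30 probe sets were followed in these.

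Synthetic hexaploids re-create the origin of bread wheat by crossing a tetraploid wheat with the diploid goat grass Aegilops tauschii. S0_36 was selfed generation 0 of the cross of tetraploid Triticum turgidum cultivar Joyau with Ae. tauschii ssp. strangulata accession 36. S0_54 and S1_54 were selfed generations 0 and 1 of the cross of Joyau with Ae. tauschii ssp. tauschii accession 54. Natural hexaploid bread wheat was represented by Triticum aestivum cultivar Courtot. In mix36 and mix54, RNA of Joyau was combined in equal parts with that of accession 36 or 54. The parental groups were Joyau, accession 36 (Ae36) and accession 54 (Ae54). Whole untreated plants of 40 days were used, and each of the 9 groups had 2 arrays. Each cross is thus represented by 1 tetraploid cultivar and 1 diploid accession, and accession 36 by generation 0 only. A tetraploid parent gives a hexaploid more chromosomes than a diploid parent does, so equal parts of RNA need not match a hexaploid's makeup.

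Genes of a hexaploid wheat usually occur as homoeologues, copies inherited from the different ancestral genomes. In an allopolyploid, the summed level of such copies may lie between the parental levels, match one parent, or lie outside the parental range. A level above both parents is called transgressive. The array's probes were designed mainly from bread wheat transcripts, and homoeologues can share a probe set. In whole plants, more RNA per cell cannot be told apart from more cells of a type that expresses the gene.

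Over all probe sets but the controls, array medians lay between 2.86 and 3.04, and 11895 to 14132 probe sets per array reached 5. The 2 arrays of a mix were nearly alike, with an SD of their difference of 0.131 in mix36 and 0.117 in mix54, against 0.460 to 0.671 in the other groups, and were counted as 1 sample. RNA input was 20 µg for both Ae36 arrays and Ae54 replicate 2, and 40 µg on the labels of the rest. The extract label of Ae54 replicate 1 names the mix with accession 54 and its organism label the hybrid, but its values correlated at 0.971 with Ae54 replicate 2 and at 0.739 with both mix54 arrays. The array hybridization controls averaged 8.71 (mix54) to 10.71 (Ae36) by group, with 9.16 to 10.26 in the synthetics and 8.83 in Courtot. The part of input or controls in the results was not tested. petC, which encodes the Rieske subunit of the photosynthetic cytochrome complex, was at 13.18 to 14.07 in all groups on the probe set Ta.861.1.S1_at, but its other probe set stayed at 2.38 to 2.70.

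Single groups passed the step of 1 over the highest parent more often than all of them together. Of the 9121 probe sets, 97 did so in S0_36, 67 in S0_54 and 113 in S1_54. Both S0 groups shared 40, both groups of the accession 54 cross shared 32, and 195 passed in any synthetic group. The opposite pattern, each synthetic mean at least 1 below the lowest parental mean, was met by 29 probe sets. The step, the lowest synthetic mean minus the highest parental mean, had a median of -0.87 over the 9121 and ran from 1.01 to 3.01 over the 30, with a median of 1.49, or 2.81-fold. Just inside the limit were Ta.1512.1.S1_at at 1.01, TaAffx.13219.2.S1_s_at at 1.09 and TaAffx.136701.1.S1_x_at at 1.10. Just outside were Ta.303.3.S1_x_at at 0.97, Ta.2891.2.S1_at at 0.96 and Ta.28271.1.S1_at at 0.95. At the parental minimum, Ta.5597.1.S1_at with 5.02 and Ta.14213.1.S1_at with 5.05 were just inside. Ta.12434.1.S1_at with 4.97 and Ta.28394.1.S1_s_at with 4.87 were just outside, although the step of Ta.28394.1.S1_s_at was 3.38. The limit therefore falls within a continuous tail, as the histogram of the step shows.

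**Figure D1:**
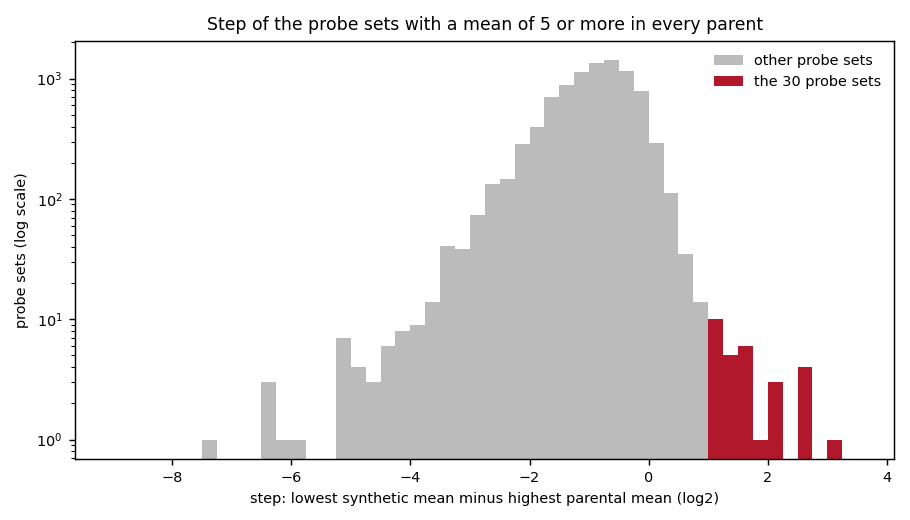
Histogram of the step, the lowest synthetic group mean minus the highest parental group mean on the log2 scale, over the 9121 probe sets with a mean of 5 or more in every parent, with the number of probe sets on a log axis. The 30 probe sets (red) lie at 1.01 to 3.01, at the right end of a distribution whose median is -0.87.

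In 28 of the 30, every one of the 6 synthetic arrays was above every one of the 6 parental arrays. The choice was made on the same arrays, so nothing is read from this count, which was met by 1.73% of the 9121. The exceptions were Ta.1967.2.A1_x_at and Ta.5382.1.S1_x_at, in both of which S0_54 replicate 3 lay below a parental array. The highest parental mean was that of Joyau in 16, of Ae36 in 8 and of Ae54 in 6. Gene symbols are known for 2 of the 30, LOC543333 and LOC543407. No role is annotated for either in the sources used here, and the other 28 are given by their probe set names. None of the 30 matched the 10 gene lists drawn up for photosynthesis, stress, chromatin and other themes, which together matched 6 of the tested probe sets. The lists for translation, cell wall, membrane transport, signalling and transcription, protein turnover and seed storage matched no probe set at all. Matching used gene symbols only, which 28 of the 30 lack, so nothing is read from the lack of matches.

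A first kind of probe set had parents at nearly the same level. Ta.5597.1.S1_at was at 8.15 and 8.17 in S0_36, 9.02 and 9.19 in S0_54, and 8.58 and 8.94 in S1_54. Its 6 parental arrays lay between 4.93 and 5.47, so that the synthetics stood 2.72 above Joyau, the highest parent, or 6.61-fold. The groups were far apart and the parents close to the minimum of 5.

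LOC543333 (probe set Ta.30768.3.S1_x_at) was at 11.01 and 10.52 in S0_36, 10.39 and 10.76 in S0_54, and 10.47 and 10.50 in S1_54. Joyau was at 7.96 and 7.87, Ae36 at 8.27 and 7.15, and Ae54 at 7.70 and 7.37. The synthetic group means differed by only 0.28 and exceeded the highest parent by 2.57, or 5.96-fold.

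TaAffx.110751.1.S1_x_at was at 8.57 and 8.78 in S0_36, 9.25 and 9.05 in S0_54, and 9.11 and 8.26 in S1_54, against 5.73 to 6.21 on the parental arrays. TaAffx.112290.2.S1_at was at 10.08 and 10.14 in S0_36, 8.39 and 10.29 in S0_54, and 9.56 and 10.48 in S1_54, against 5.64 to 7.04 on the parental arrays. Their steps were alike, 2.55 each, but the second probe set varied more between replicates. Ta.28395.1.A1_at varied little, with 7.78 to 8.14 on the 6 synthetic arrays against 4.91 to 5.91 on the parental ones, and a step of 2.05.

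Another kind had a large difference between the parents. The parental means spanned 1 or more in 17 of the 30 and 2 or more in 8. Ta.23362.3.S1_x_at showed the widest span. It was at 11.61 and 11.68 in S0_36, 11.83 and 11.82 in S0_54, and 12.08 and 11.74 in S1_54, but at 10.17 and 9.96 in Joyau, 7.04 and 3.96 in Ae36, and 8.44 and 7.46 in Ae54. The synthetics thus exceeded the tetraploid parent by 1.58 (2.99-fold), and the Ae36 arrays differed from each other by 3.08.

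Ta.303.2.S1_x_at had nearly equal synthetic groups, with means of 10.90 in S0_36, 10.94 in S0_54 and 10.88 in S1_54 (SD 0.08, 0.15 and 0.19, n = 2 each). Joyau was at 9.23 and 9.16, Ae36 at 6.43 and 6.64, and Ae54 at 7.05 and 4.49. Ta.1968.1.S1_at was likewise higher in the tetraploid than in the diploids, with 7.65 and 7.75 in Joyau and 5.22 to 5.32 on the Ae arrays, against 8.73 to 10.76 on the synthetic arrays. For both, the step over Joyau was smaller than the distance between Joyau and the diploids.

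In Ta.9430.1.S1_at and Ta.27744.2.S1_a_at the lowest parent was Ae54. Ta.9430.1.S1_at had the largest step of the 30, 3.01 or 8.05-fold. It was at 11.40 and 11.03 in S0_36, 9.28 and 11.41 in S0_54, and 11.48 and 11.67 in S1_54. It was at 7.61 and 7.01 in Joyau, 7.44 and 7.24 in Ae36, and 5.05 and 5.55 in Ae54. Ta.27744.2.S1_a_at averaged 11.72 ± 0.11 in S0_36, 11.01 ± 0.85 in S0_54 and 11.81 ± 0.22 in S1_54, against 8.17 ± 0.20 in Joyau, 9.48 ± 0.62 in Ae36 and 6.48 ± 0.52 in Ae54 (SD, n = 2 each). In both, S1_54 was the highest synthetic group and S0_54 the lowest.

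**Figure D2:**
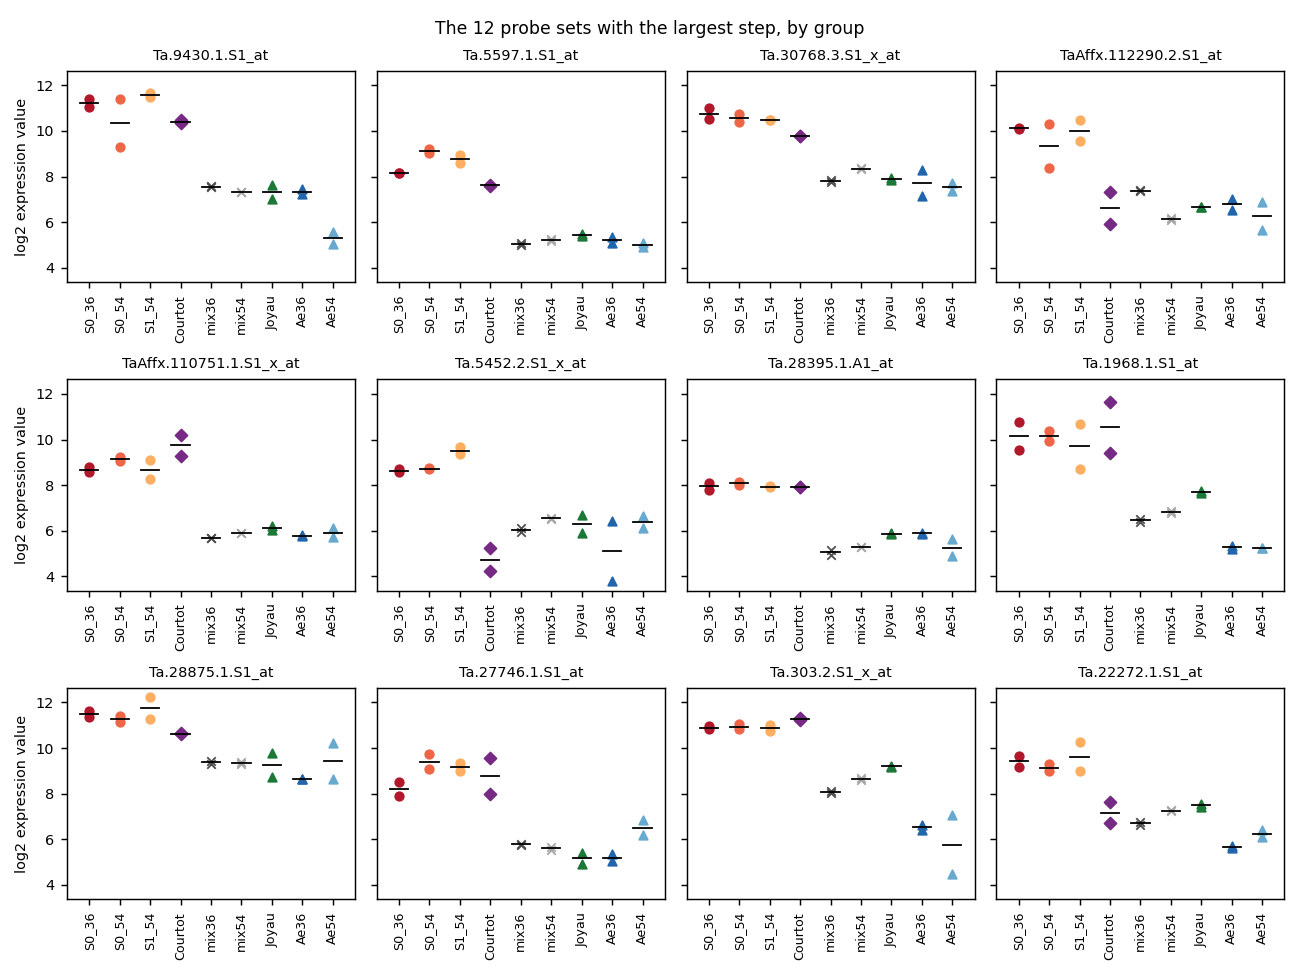
Log2 expression values of the 12 probe sets with the largest step, 1 point per array and a line at each group mean (2 arrays), with the synthetic groups at the left, then Courtot, the RNA mixes and the parents. All synthetic arrays of these 12 lie above all parental arrays, while Courtot is near the synthetics in Ta.28395.1.A1_at and Ta.303.2.S1_x_at and near the mixes or below them in TaAffx.112290.2.S1_at and Ta.5452.2.S1_x_at.

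Of the other large steps, Ta.5452.2.S1_x_at (2.24 over Ae54, the highest parent) had a divided parental group, which bears on the minimum and not on the step. Its synthetic arrays lay between 8.58 and 9.66, and Ae36 was at 6.41 and 3.79, a mean of 5.10 that passed the minimum through 1 array only. In all, 8 of the 30 had 1 parental array under 5. Ta.28875.1.S1_at (1.86) was at 11.16 to 12.22 in the synthetics, against 8.62 to 10.22 in the parents. Ta.27746.1.S1_at (1.69) was at 7.90 to 9.73 against 4.93 to 6.83, and Ta.22272.1.S1_at (1.66) at 8.98 to 10.26 against 5.61 to 7.55.

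LOC543407 (probe set Ta.176.1.S1_x_at) was at 13.02 and 12.72 in S0_36, 12.46 and 12.53 in S0_54, and 13.37 and 13.24 in S1_54. Joyau was at 11.40 and 11.29, Ae36 at 11.09 and 11.46, and Ae54 at 10.47 and 10.24. The groups did not overlap, and its step was 1.15, or 2.21-fold. The rest of the 30 had steps of 1.01 to 1.55, and their values on every array are drawn in the plot of all arrays.

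**Figure D3:**
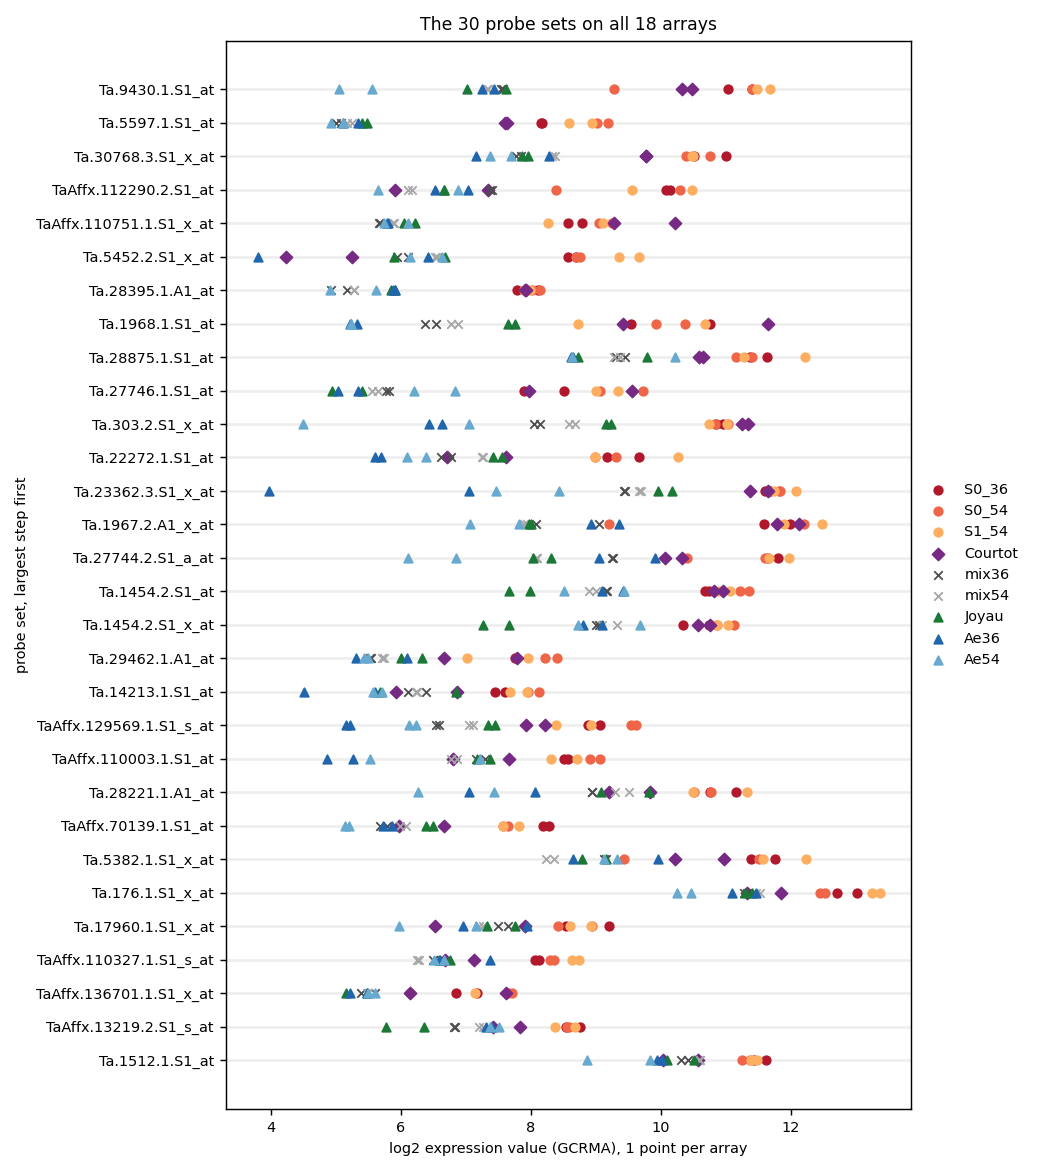
Log2 expression values of the 30 probe sets on all 18 arrays, 1 row per probe set and 1 point per array, ordered by the step. Synthetics are circles, Courtot diamonds, RNA mixes crosses and parents triangles. Synthetic circles lie to the right of all parental triangles in 28 rows, the mix crosses lie left of all synthetic circles in every row, and Courtot is spread between the parental and the synthetic levels or beyond them.

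The 3 synthetic groups were compared with each other as values without a test, since all of them entered the choice. Their means spanned 0.06 to 1.5, with a median of 0.55, beside 0.50 over the 9121. No group was the highest throughout: S0_36 was in 7, S0_54 in 13 and S1_54 in 10. Generation 1 was above generation 0 of the accession 54 cross in 15 and below it in 15, with a median S1_54 minus S0_54 difference of 0.02, beside -0.22 over the 9121. S0_36 was above S0_54 in 14 and below it in 16.

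The narrowest spans were those of Ta.303.2.S1_x_at at 0.06, TaAffx.13219.2.S1_s_at at 0.13, Ta.28395.1.A1_at at 0.14, Ta.17960.1.S1_x_at at 0.19 and Ta.1512.1.S1_at at 0.22. The widest were those of Ta.1967.2.A1_x_at at 1.5, Ta.5382.1.S1_x_at at 1.43, Ta.9430.1.S1_at at 1.23, Ta.27746.1.S1_at at 1.19 and TaAffx.136701.1.S1_x_at at 1.03. In the first 3 of these widest spans S0_54 was the lowest group.

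Within S0_54, the 2 replicates differed by 1 or more in 5 of the 30, and replicate 3 was the lower array in all 5. Over the 9121 probe sets such a difference within S0_54 was seen in 1.36%. Ta.1967.2.A1_x_at was at 9.20 in replicate 3 and 12.20 in replicate 4. Ta.9430.1.S1_at was at 9.28 and 11.41, Ta.5382.1.S1_x_at at 9.43 and 11.51, TaAffx.112290.2.S1_at at 8.39 and 10.29, and Ta.27744.2.S1_a_at at 10.41 and 11.61. Replicate 4 of each lay close to or among the S0_36 and S1_54 arrays, and replicate 3 lay below all of them. Such differences were seen in 1 of the 30 in S0_36 and 3 in S1_54, beside 3.26% and 3.63% of the 9121, with Ta.1968.1.S1_at in both, at 9.54 and 10.76 in S0_36 and 8.73 and 10.68 in S1_54. Outside the synthetics, Courtot showed them in 7 of the 30, beside 5.03% of the 9121. The counts were 6 in Ae36, 6 in Ae54 and 2 in Joyau, beside 9.28%, 3.85% and 1.62%. The rule without S0_54 replicate 3 gave 30 probe sets, 28 of them shared with the 30 described here.

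The arrays of the RNA mixes were not used in the choice, but the mixes hold RNA of the parents, whose levels were. All 6 synthetic arrays were above all 4 mix arrays in each of the 30 probe sets, as they were in 7.14% of the 9121. The choice put the parents below the synthetics, so nothing is read from this count. S0_36 exceeded mix36 by a median of 2.41 over the 30, S0_54 exceeded mix54 by 2.19 and S1_54 exceeded mix54 by 2.24, with medians of -0.19, -0.10 and -0.30 over the 9121. Because the synthetic arrays and the parents of the mixes entered the choice, the differences between synthetics and mixes were not tested. They ran from 0.71 for Ta.1512.1.S1_at in S0_54 to 4.28 for Ta.1967.2.A1_x_at in S1_54.

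The mixes were compared with the parents. No mix mean was 1 or more above the highest parental mean in any of the 30, which was also rare over the 9121, at 0.088% for mix36 and 0.48% for mix54. mix36 exceeded that parent in 4 of them and mix54 in 5, beside 11.0% and 19.3% of the 9121. Against its own 2 parents, mix36 was above both in 8 and below both in 6, beside 16.4% and 20.7% of the 9121. mix54 was above both in 6 and below both in 4, beside 25.9% and 24.7%. In 12 of the 30 both mixes lay within their own parents. In Ta.28395.1.A1_at, for example, mix36 was at 5.05, below Joyau at 5.88 and Ae36 at 5.89. Against the level computed from equal parts of the parental means on the linear scale, mix36 differed by a median of 0.04 and mix54 by 0.17 over the 30, with extremes of -0.83 and 0.73. The sources used here do not say whether the mixes were made from the RNA extracts of the parental arrays.

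The difference between Courtot and the mixes was tested, since the choice used the arrays of neither. The mixes hold RNA of the parents, however, and the choice asked for parental means below the synthetic ones. The mix side of the contrast is therefore not independent of the choice, and its part in the counts below was not tested. The means compared come from arrays outside the choice, but 6 of the 7 residual degrees of freedom behind the standard errors come from the synthetic and parental arrays that the choice used. The question was whether a natural hexaploid also stood above the mixed RNA of a tetraploid and a diploid. Of the 30 probe sets, 14 (46.7%) were higher in Courtot than in the mean of mix36 and mix54 and 0 were lower, at an adjusted p under 0.05 from limma fitted to all 18189 tested probe sets. Over all tested probe sets 7.3% were higher and 9.72% lower, and over the 9121 expressed in every parent 3.46% and 6.9%. The median Courtot minus mixes difference was 1.45 over the 30, beside -0.09 over all tested, and it was positive in 26 of the 30. At an unadjusted p under 0.05, 19 of the 30 were higher and 1 lower, beside 12.4% and 18% of all tested. The 2 Courtot arrays lay above all 4 mix arrays in 20 of the 30 and below them in 1, beside 19.8% and 30.9% of the 9121.

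TaAffx.110751.1.S1_x_at rose most. It was at 9.27 and 10.22 in Courtot, against 5.67 on both arrays of mix36 and 5.88 and 5.90 in mix54. The difference was 3.97 ± 0.34 (SE, limma adjusted p = 1.6e-05), a 15.6-fold excess, and Courtot was also above the synthetics by 0.91. Ta.5597.1.S1_at was at 7.60 and 7.63 in Courtot, against 5.08 and 5.00 in mix36 and 5.17 and 5.25 in mix54. Its difference of 2.49 ± 0.19 had the lowest adjusted p of the 30 (limma, 6.84e-06), and Courtot minus the synthetic mean was -1.06.

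Ta.28395.1.A1_at was at 7.90 and 7.93 in Courtot, close to the synthetic mean of 7.99, and rose by 2.75 ± 0.23 over the mixes (SE, limma adjusted p = 1.63e-05). Ta.303.2.S1_x_at was at 11.25 and 11.33 in Courtot, above all 6 synthetic arrays, and rose by 2.93 ± 0.59 (limma adjusted p = 0.0063). In TaAffx.110751.1.S1_x_at, too, Courtot lay above every synthetic array. These were the 2 probe sets of the 30 in which it did.

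Ta.1968.1.S1_at was at 11.66 and 9.42 in Courtot, against 6.54 and 6.37 in mix36 and 6.88 and 6.77 in mix54. It rose by 3.90 ± 0.73 (limma adjusted p = 0.0042), with an SD of 1.58 between the Courtot arrays. Ta.1967.2.A1_x_at was at 12.13 and 11.79 in Courtot, against 9.04 and 8.07 in mix36 and 7.89 and 7.94 in mix54, a rise of 3.72 ± 0.72. Ta.27746.1.S1_at rose by 3.07 ± 0.47 and Ta.9430.1.S1_at by 2.96 ± 0.53. In these 4, Courtot minus the synthetic mean ran from -0.64 to 0.53.

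LOC543333 was at 9.77 on both Courtot arrays, against 7.78 and 7.85 in mix36 and 8.33 and 8.38 in mix54. It rose by 1.69 ± 0.33 (SE, limma adjusted p = 0.0052) and differed from the synthetic mean by -0.83. Ta.1454.2.S1_at and Ta.1454.2.S1_x_at, which come from the same transcript cluster and may share probes, rose by 1.83 ± 0.28 and 1.55 ± 0.31. The smallest rises were those of Ta.29462.1.A1_at at 1.60, Ta.27744.2.S1_a_at at 1.52 and TaAffx.129569.1.S1_s_at at 1.25.

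Most of these calls kept to their side of the threshold when 1 array was left out. The call of Ta.27744.2.S1_a_at ended without Courtot replicate 1 (limma adjusted p = 0.0935) and without Courtot replicate 2 (0.107), and that of Ta.29462.1.A1_at without Courtot replicate 1 (0.184). The other 12 passed in all 18 fits with 1 array left out. When the fit was restricted to Courtot and the mixes, with 1 residual degree of freedom, 5 of the 14 passed: Ta.9430.1.S1_at, Ta.5597.1.S1_at, Ta.28395.1.A1_at, Ta.303.2.S1_x_at and Ta.1967.2.A1_x_at. Each mix counts as a single sample in the test, and its spread is assumed to be that of the plants. Both mixes hold RNA of Joyau, but the fit treats them as independent, and the effect of this was not tested.

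**Figure D4:**
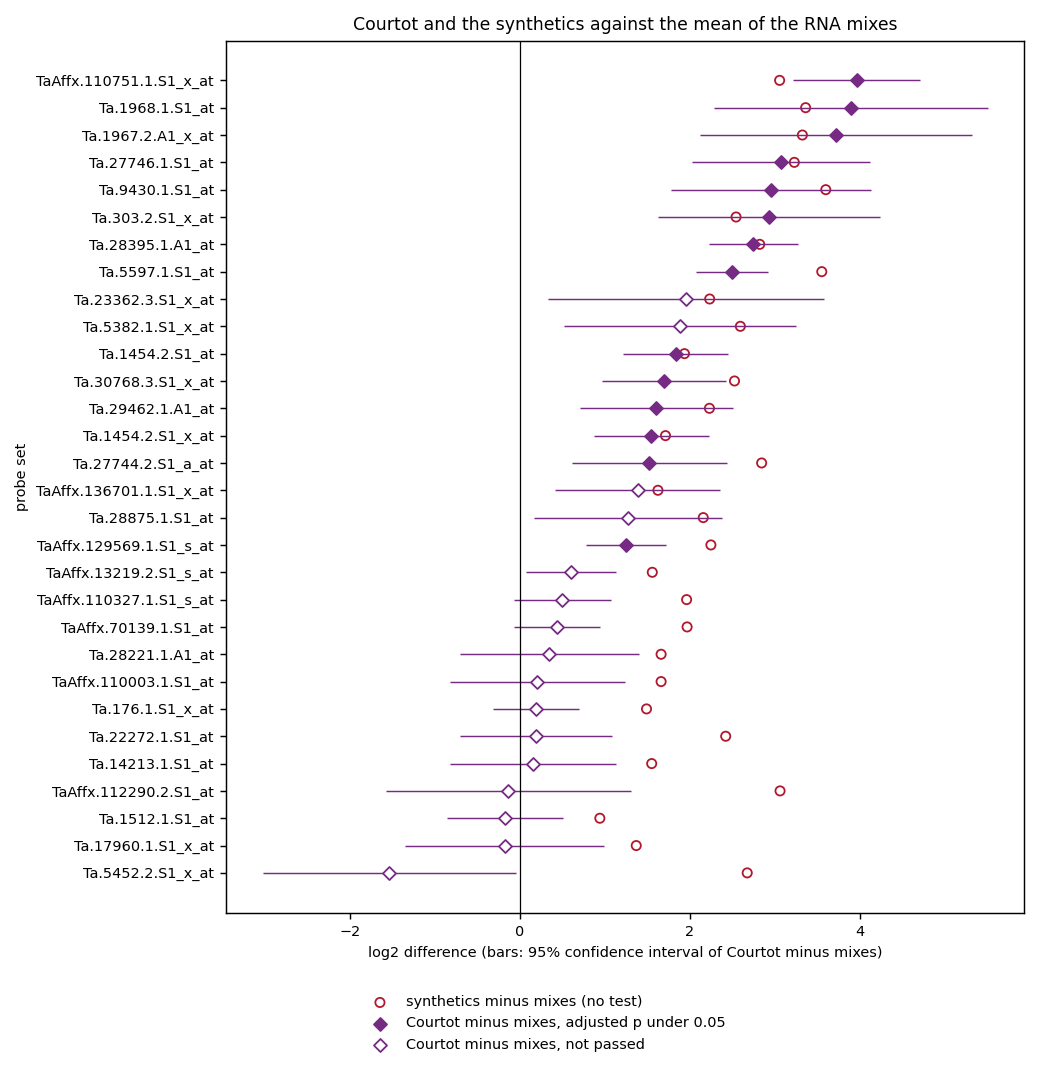
Log2 differences of the 30 probe sets from the mean of mix36 and mix54, ordered by the Courtot difference. Purple diamonds are Courtot minus mixes with 95% confidence intervals, filled for the 14 that passed at an adjusted p under 0.05, and red circles are the mean of the 3 synthetic groups minus the mixes, not tested. The red circles all lie right of 0, with a median of 2.24, and the diamonds range from -1.54 to 3.97.

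The other 16 did not pass, with Courtot minus mixes differences of -1.54 to 1.95, 12 of them positive and 4 negative. LOC543407 was at 11.33 and 11.85 in Courtot, against 11.27 and 11.32 in mix36 and 11.53 and 11.47 in mix54. The difference was 0.19, with a 95% confidence interval of -0.32 to 0.70, so a rise as large as its synthetics minus mixes difference of 1.49 lies outside the interval. TaAffx.112290.2.S1_at was at 7.33 and 5.91 in Courtot, against 7.41 and 7.36 in mix36 and 6.10 and 6.17 in mix54. Its difference was -0.14, with an interval of -1.58 to 1.30, while its synthetics stood 3.06 above the mixes.

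Ta.22272.1.S1_at differed by 0.19 (interval -0.71 to 1.08) and Ta.1512.1.S1_at by -0.18 (-0.86 to 0.50), beside synthetics minus mixes differences of 2.42 and 0.94. For 10 of the 16, no alternative fit gave a call. The other 6 passed in at least 1 of them, in the direction of their difference. Ta.23362.3.S1_x_at, with a difference of 1.95, passed without Ae36 replicate 1 and without Ae36 replicate 2 (limma adjusted p = 0.00169 in both), which removes the difference of 3.08 between these arrays from the spread. Ta.5382.1.S1_x_at, at 1.88, passed without either S0_54 array (limma adjusted p = 0.0178 in both) or either Ae36 array (0.0489 in both), and Ta.28875.1.S1_at, at 1.27, without Ae54 replicate 1 or 2 (0.0464 and 0.0465).

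TaAffx.136701.1.S1_x_at was at 1.39, with a limma adjusted p of 0.0543. The difference was 2.13 without Courtot replicate 1 but 0.65 without Courtot replicate 2. This probe set passed after quantile normalization and where the mix arrays were counted separately. It also passed without S1_54 replicate 5 or 7 and without mix36 replicate 2, at 0.043 to 0.0465. TaAffx.13219.2.S1_s_at, at 0.60, passed only where the mix arrays were counted separately.

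Ta.5452.2.S1_x_at was the only one of the 30 whose Courtot arrays both lay below all mix arrays. It was at 4.23 and 5.25 in Courtot, against 5.94 and 6.10 in mix36 and 6.53 and 6.55 in mix54, and at 8.58 to 9.66 in the synthetics. The difference from the mixes was -1.54 ± 0.67 (SE, limma adjusted p = 0.151), with an interval of -3.03 to -0.05. Without Ae36 replicate 1 or 2, whose values of 6.41 and 3.79 widen the spread, it passed as lower (limma adjusted p = 0.0168 in both).

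Set beside the synthetics, Courtot was lower in most of the 30, again as a description. All 6 synthetic arrays were above both Courtot arrays in 17, and both Courtot arrays above all synthetic arrays in 2, beside 11.8% and 19.5% of the 9121. The median Courtot minus synthetics difference was -0.92 over the 30, which were chosen for high synthetics, beside 0.10 over the 9121. Courtot averaged at least 1 above the highest parental mean in 16 of the 30, beside 0.669% of the 9121, and was not above that parent in 7, beside 87.7% of the 9121. Both Courtot arrays lay above all 6 parental arrays in 18, beside 3.76% of the 9121. The parental arrays entered the choice, which asked for parental means below the synthetic ones. The counts against the parents are therefore not independent of the choice, and its part in them was not tested.

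The 30 were set against the other probe sets by type. Of them, 11 (36.7%) carry the suffix _x_at, which marks probe sets with some probes that also match other transcripts, beside 20.5% of the 9121. The suffix _s_at, for probes shared by several transcripts, was found in 3 (10%) beside 9.46%, and _a_at, for variants of 1 gene, in 1 (3.33%) beside 18.8%. The remaining 15 have the plain suffix. Among the 14 that rose in Courtot, 5 were _x_at, and among the other 16, 6 were. Levels of _x_at probe sets can include other transcripts, and their part was not tested.

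Names of probe sets on this array share a stem where the transcripts fell in the same sequence cluster. The 30 come from 29 clusters, and 17 of these hold 35 further probe sets, 26 of them tested. In 14 of these 26 all synthetic means were above all parental means, and in 6 by 1 or more. The median step over all tested probe sets was -1.03, but their share above all parents is not given, so nothing is read from these counts. Of the 12 further probe sets expressed at 5 or more in every parent, 7 had all synthetic means above all parents, beside 5.27% of the 9121. Probe sets of a cluster can share sequence and were measured on the same arrays, so they are no independent evidence.

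TaAffx.110751.1.S1_s_at, of the cluster of TaAffx.110751.1.S1_x_at, was at 8.70 in S0_36, 9.19 in S0_54, 8.84 in S1_54 and 9.85 in Courtot, against 3.45 in mix36, 3.63 in mix54, 3.11 in Joyau, 2.87 in Ae36 and 2.78 in Ae54. Courtot was highest and the synthetics next on both probe sets of the cluster, but the parents of TaAffx.110751.1.S1_s_at were near the floor of the array, so that it fell outside the 30 for its parental level. Likewise Ta.29462.1.A1_a_at and Ta.29462.1.A1_x_at averaged 8.62 and 9.12 in the synthetics, against 5.82 and 6.67 in Joyau and 3.15 to 3.95 in the diploids.

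Other clusters held probe sets with opposite patterns. In the cluster of Ta.23362.3.S1_x_at, Ta.23362.1.S1_x_at was at 11.82 in the synthetics, against 10.36 in Joyau, 4.30 in Ae36 and 4.15 in Ae54. Ta.23362.2.S1_at was at 12.44 in the synthetics, against 2.99 in Joyau, 13.24 in Ae36 and 13.28 in Ae54. One followed the tetraploid and exceeded it, and the other was high in the diploids and a little lower in the synthetics. In the cluster of Ta.5452.2.S1_x_at, Ta.5452.2.S1_a_at averaged 9.74 in the synthetics, against 6.02 in Joyau, 9.94 in Ae36 and 9.58 in Ae54. Its S1_54 mean was 10.35, and Courtot was at 8.35, between mix36 at 8.34 and mix54 at 8.70. Ta.5452.1.S1_at and Ta.5452.1.S1_x_at had synthetic means below both diploids, with steps of -1.69 and -1.52.

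The cluster of Ta.303.2.S1_x_at was similar. Ta.303.2.S1_at was at 11.72 in the synthetics, against 9.85 in Joyau, 3.35 in Ae36 and 2.86 in Ae54. Ta.303.1.S1_at was at 9.48 in S0_36, 2.51 in S0_54 and 2.58 in S1_54, against 2.59 in Joyau, 10.59 in Ae36 and 2.60 in Ae54. Among the parents, Ta.303.1.S1_at was thus high in accession 36 alone, and among the synthetics in S0_36 alone. Courtot was also high on it, at 10.03. In the cluster of Ta.1454.2.S1_at, Ta.1454.1.S1_x_at was at 10.09 in the synthetics, against 4.43 in Joyau, 12.62 in Ae36 and 11.77 in Ae54.

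LOC543333 and LOC543407 each had a further probe set with the same symbol. Ta.30768.1.S1_x_at (LOC543333) was at 12.63 in the synthetics, against 10.31 in Joyau and, in Ae54, 11.98, with a step of 0.56 over Ae36. Ta.176.1.S1_s_at (LOC543407) was at 13.33 in the synthetics, against 12.22 in Joyau, 12.78 in Ae36 and 12.47 in Ae54, a step of 0.34. Both were above all parents by less than on the probe sets among the 30. A further probe set of the LOC543333 cluster, Ta.30768.2.S1_x_at, has no symbol and was not above all parents. It averaged 9.82 in the synthetics, against 6.54 in Joyau, 10.73 in Ae36 and 9.96 in Ae54. Courtot was at 8.91 on it, below mix36 at 9.33 and mix54 at 9.47.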

How the data were processed

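Levels were measured on 18 Affymetrix wheat arrays. The deposited log2 values were made by the authors with GCRMA, per the submitters' processing notes (no version was named there). GCRMA holds low values near a floor, so differences from it are understated. The table has 61290 probe sets, of which 111 AFFX controls were left out; 64 RPTR reporter probe sets stayed in, 1 of them tested. Every column has a sample.

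The 30 probe sets and the gene lists were chosen with earlier results of these data known. Probe sets at 5 or more on at least 2 arrays (18189, with all 30 among them) were fitted with limma 3.58.1 in R 4.3.3, 1 mean per group. The arrays of a mix were averaged, leaving 16 samples, with 7 residual and 3.44 prior degrees of freedom. The Courtot minus mixes contrast was tested two-sided with Benjamini-Hochberg adjustment over all probe sets tested. SE and 95% intervals are those of the fit. Replicates are labelled biological, except in the mixes. P-values measure the spread between these samples, and the number of arrays limits the precision. The fit was tested on simulated data.

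A probe table gives 1 symbol to 1273 probe sets, several to 0 and none to 59906 others. Named were those with a symbol, the 12 largest steps, up to 8 calls per direction of 1 or more in Courtot, the 5 widest and 5 narrowest synthetic spans, those at the limits, and others of their clusters; the rest were added after their values were seen. Replicate numbers were not taken to pair samples: deviations of same-numbered Courtot and mix arrays correlated at -0.01 to 0.02. Among the parents, Joyau and Ae54 correlated at 0.23, Ae36 and Ae54 at 0.11 and Joyau and Ae36 at 0.08. No sequences were used here.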

Additional observations from a re-analysis of the deposited data

How the results depend on the processing

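The rule gave 25 to 33 probe sets when 1 array was left out, 31 after quantile normalization and 28 with array medians set equal, of which 29 and 27 were among the 30. A parental minimum of 4 gave 57 and of 6 gave 14, a step of 1.5 gave 15, and asking the lowest synthetic array to lie 1 above the highest parental array gave 13, by construction of stricter or looser limits. The count higher in Courtot, 14, was 13 to 16 with 1 array left out and 12 to 19 otherwise, except for 5 with only Courtot and the mixes in the fit; with the replicate block it was 17, and 18 in the same groups without it, a fit added after seeing the data. The count lower, 0, was 0 to 1 with 1 array left out and 1 with the mix arrays as separate samples. Over all tested probe sets 3095 passed, but 5700 with separate mix arrays, 5225 with the replicate block, 5420 in the same groups without it, 422 with only Courtot and the mixes, and 1430 without Courtot replicate 1.

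Without 1 Courtot array the difference changed sign in 7 probe sets, all uncalled. With 1 array left out, Ta.14213.1.S1_at ran from -0.31 to 0.62, Ta.1512.1.S1_at from -0.45 to 0.094, Ta.176.1.S1_x_at from -0.0725 to 0.45, Ta.17960.1.S1_x_at from -0.88 to 0.51, Ta.22272.1.S1_at from -0.27 to 0.64, TaAffx.110003.1.S1_at from -0.23 to 0.64 and TaAffx.112290.2.S1_at from -0.85 to 0.57.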
